A study of Mus musculus with 8 samples.

Results

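Cluster #m1 is the group of mesenchymal liver cells that the multilevel setting of pagoda2, a clustering program for single-cell expression, assigned to its cluster 1 in the deposited table of mesenchymal cells. It held 181 of 1337 mesenchymal cells and of 3491 cells in the series, 88 of them from male and 93 from female mice. The authors annotated every one of these cells as a portal fibroblast. The series holds adult mouse liver cells of 4 classes, in 8 pools that each combine 1 class and 1 sex. Livers were dissociated, single cells were sorted into plates, and the polyadenylated RNA of each cell was read by Smart-seq2, a full-length method without molecular identifiers. The mice were C57BL6/J or carried heterozygous fluorescent reporters, Pdgfrb-GFP, Pdgfra-H2bGFP, Acta2-GFP, Cspg4-dsRED or Cldn5-GFP, alone or combined, and no treatment is named. Mesenchymal cells were enriched through the *Pdgfrb*, *Pdgfra* and *Acta2* reporters and through an antibody against PDGFRα, so the *Pdgfra* level of a sorted cell was partly set by the sort. The labels name neither the mouse nor the reporter of each cell, and a pool mixes mice. Of the other fibroblast clusters, 3 were set against it, #m4 with 89 male and 9 female cells, which the authors annotated as peribiliary fibroblasts, #m8 with 156 male cells and #m10 with 127 male cells, which were annotated as portal fibroblasts except for 1 cell of #m10. Cluster #m9, with 86 male and 33 female cells that were mostly annotated as *Wt1*+ fibroblasts, entered the fit but was not tested against #m1.

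Fibroblasts of the portal tract build the connective tissue around the portal vein, the hepatic artery and the bile duct, where they secrete collagens, proteoglycans and elastic fibre proteins. *Pdgfra* encodes a receptor for platelet-derived growth factors and marks fibroblasts in most organs, and *Cd34* encodes a sialomucin shared by adventitial fibroblasts and endothelial cells. *Ngfr* encodes the low-affinity neurotrophin receptor p75 and *Ncam1* the neural cell adhesion molecule, and both are known from neural tissue and from subsets of liver mesenchymal cells.

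Levels are given as CPM, the counts summed over the cells of a cluster in a pool or on a plate and scaled to a common library total. Where 2 values are joined for #m1 or #m4, the male pool comes first. A share is the percent of cells with at least 1 count. Intervals on shares are exact 95% binomial intervals and cover the counting of cells only. Cells of #m1 had a median of 284074 counts and 4222.5 detected genes in the male pool and of 378307 counts and 6589 genes in the female pool, against medians of 114907 counts in #m8 and 262143 counts in #m10. All 93 female cells of #m1 lay on 1 plate, called 058s, so in this cluster sex and plate cannot be told apart. Of the male cells, 35 lay on plate 048s, 31 on 319s, 14 on 128s and 5 on Rb_573s, with 3 on other plates. Plate Rb_573s also held 153 of the 156 cells of #m8, and another plate, 440s, held 105 of the 127 cells of #m10 but 1 cell of #m1. Differences of #m1 from #m8 and #m10 therefore go along with the plate, while 13 and 9 cells of #m4 shared plates 048s and 058s with #m1.

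A finer setting of the same program, called community, placed the cells of #m1 in 4 clusters. Clusters #m1c and #m18c held 150 cells, 82.9% of #m1, and were nearly split by sex, with 62 male and 1 female cell in the part from #m1c and 6 male and 81 female cells in the part from #m18c. The other 31 cells, 17.1% of #m1, had transcripts of other cell types at higher levels. The 9 cells of #m14c, 6 of them on plate 058s, had endothelial transcripts: *Kdr*, the main VEGF receptor of endothelium, was at 954 and 612 CPM in their male and female cells, against 2.59 and 12.8 CPM in the cells of #m1c and #m18c, and *Stab2*, a scavenger receptor of sinusoidal endothelium, was at 1317 and 659 CPM against 3.78 and 15.7 CPM. Summed over the 8 genes of the endothelial list, #m14c reached 4632 and 2771 CPM and the 150 cells 26.2 and 61.4 CPM. Mural cell markers were at 9425 CPM in its female cells, against 3250.1 CPM in the female cells of #m1c and #m18c. *Pdgfra* was at 628 and 14.1 CPM in #m14c, so the label of fibroblast went against the markers in its female cells. The 22 cells of #m6c were shallow, with a median of 100996 counts, and had *Alb*, the albumin gene of hepatocytes, at 603 and 3877 CPM against 72.1 and 299.6 CPM in the 150 cells. Its 5 female cells also had immune markers at 1611 CPM, against 196 CPM in the female cells of #m1c and #m18c. The tests below use all 181 cells, and many but not all values that these 31 cells moved are given without them as well.

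**Figure D1:**
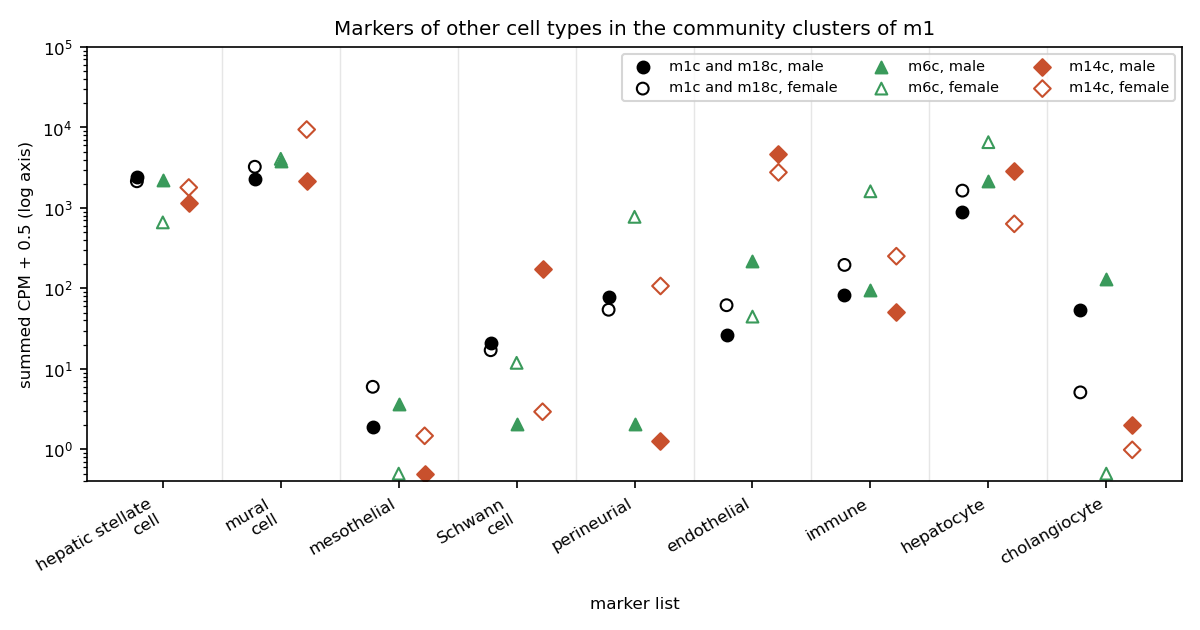
Summed level, as CPM plus 0.5 on a log axis, of 9 marker lists of other cell types in the cells of #m1, by community cluster and sex (filled symbols male, open symbols female). The endothelial list stands at 4632 and 2771 CPM in #m14c and at 26.2 and 61.4 CPM in #m1c and #m18c.

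The marker genes of the cluster were checked first. *Pdgfra* was at 470.2 and 366 CPM in #m1, 908 and 490.2 CPM in #m4, 429 CPM in #m8 and 513 CPM in #m10, and *Cd34* was at 983 and 937 CPM in #m1, 1324 and 1131 CPM in #m4, 727 CPM in #m8 and 471 CPM in #m10. Neither gene was at its highest in #m1. Among the cells of #m1, 89.5% (interval 84.1 to 93.6%) had a count of *Pdgfra* and 95% (interval 90.8 to 97.7%) of *Cd34*. *Ngfr* was at 146 and 434 CPM in #m1, 118 and 278 CPM in #m4, 178 CPM in #m8 and 147 CPM in #m10, with the male value of #m1 inside the range of the other clusters. Its level in #m1 differed by plate, at 62.3 CPM on 048s, 60.5 CPM on 319s, 391 CPM on 128s, 717 CPM in the 5 cells on Rb_573s and 434 CPM on 058s. The cells of #m4 had 61.4 and 278 CPM on 048s and 058s. On these plates the level in #m1 lay within 2 times that in #m4, and on Rb_573s the 16 cells of #m4 had 20.2 CPM. Outside the fibroblasts it was at 295 and 345 CPM in #m3, the cluster of hepatic stellate cells, and at 319 and 338 CPM in #m7, a cluster of venous smooth muscle cells.

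*Ncam1* separated #m1 from the peribiliary cluster more than the other markers. Its level was 96.8 and 141 CPM in #m1, 0.784 and 2.69 CPM in #m4, 38.2 CPM in #m8 and 63.4 CPM in #m10. On plate 048s it was 118 CPM in #m1 and 0.26 CPM in #m4, and on plate 058s 141 and 2.69 CPM. The cells of #m1 on plates 128s and 319s had 101 and 81.6 CPM, so the 4 plates with more than 5 cells of #m1 were all above the plates of #m4. The 5 cells of #m1 on Rb_573s had 0 counts. Its log2 fold change against #m4 reached 6.28 ± 1.17 (SE; adjusted p = 0.15 by the edgeR quasi-likelihood test, Benjamini-Hochberg adjusted), which did not pass. The log2 fold changes against #m8 and #m10 were 1.46 and 1.05 (adjusted p = 1 for both). *Ncam1* was not confined to #m1, since #m6, a smooth muscle cluster, had 628 and 629.8 CPM and #m5, of second layer cells and venous smooth muscle cells, 299 and 205 CPM. The stellate cell cluster #m3 had 219 and 77.2 CPM and the fibroblast cluster #m9 77.4 and 21.8 CPM. Of the 4 markers, 1 had a p under 0.05 without adjustment against #m4 by edgeR. DESeq2 called 1 of them higher against #m4 and 0 against the mean of the 3 clusters.

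The share of cells with a count depended on the pool, so it is given within sex. In the male pool, *Ncam1* was counted in 27 of 88 (30.7%, interval 21.3 to 41.4%) cells of #m1, against 19.1% in #m4, 17.3% in #m8 and 33.9% in #m10. *Ngfr* was counted in 21 of 88 (23.9%, interval 15.4 to 34.1%) male cells of #m1, against 36%, 30.8% and 49.6%. At full depth the male share with *Ngfr* was thus lowest in #m1, and that with *Ncam1* was above #m4 and #m8 and below #m10. Both genes were counted in 7 of 88 (7.95%, interval 3.26 to 15.7%) male cells of #m1, against 7.87% in #m4, 3.85% in #m8 and 18.1% in #m10. In the female pool, all on plate 058s, #m1 had *Ncam1* in 78 of 93 (83.9%, interval 74.8 to 90.7%), *Ngfr* in 90 of 93 (96.8%, interval 90.9 to 99.3%) and both in 77 of 93 (82.8%, interval 73.6 to 89.8%). The 9 female cells of #m4 on that plate had *Ncam1* in 77.8% and *Ngfr* in all 9, although the level of *Ncam1* there was 2.69 CPM. With every cell thinned to 50000 counts, leaving out 1 shallower cell of #m1, *Ncam1* was counted in 26.4% of male and 49.5% of female cells of #m1. The thinned shares were 5.62% and 22.2% in #m4, 12.8% in #m8 and 21.3% in #m10. Thinned male shares with *Ngfr* were 23% in #m1, 25.8% in #m4, 22.4% in #m8 and 37% in #m10. Both male orders thus changed with thinning: #m1 was no longer lowest for *Ngfr*, and it was above #m10 for *Ncam1*. These markers were chosen on the same cells, so their levels and shares describe the cluster and are no independent evidence for it.

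**Figure D2:**
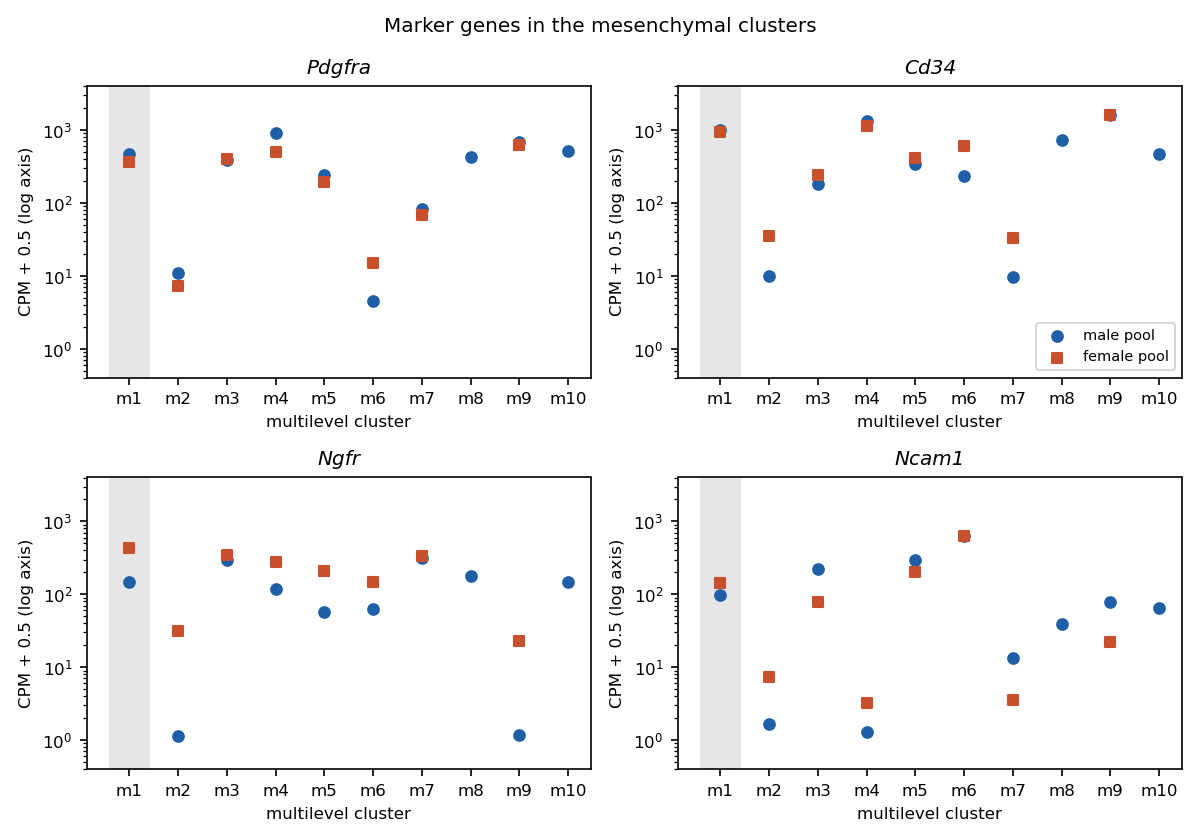
Level of the 4 marker genes, as CPM plus 0.5 on a log axis, in the 10 multilevel clusters of mesenchymal cells, with 1 point per cluster and pool and #m1 shaded. *Ncam1* stands at 96.8 and 141 CPM in the male and female pools of #m1 and at 0.784 and 2.69 CPM in #m4.

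By edgeR, genes differed between #m1 and the peribiliary cluster #m4, where *Wif1* fell and 8 genes including *Atp1b1* and *Smoc1* rose, and between #m1 and #m8, where *Col1a1*, *Col1a2* and *Gsn* were among 7 that fell. Clusters #m8 and #m10 gave 1 sum each, so the spread in their tests came from the other clusters, and each is assumed to vary like them. None passed against #m10 or against the mean of the 3 clusters. Counts of #m1 were compared with the mean of #m4, #m8 and #m10 in a fit over the sums of all 10 mesenchymal clusters with sex as a term. The clusters were drawn on the same transcriptomes, so a p-value here sets a difference against the spread between pools and is no independent evidence for the cluster. No gene passed an adjusted p under 0.05 with an absolute log2 fold change of at least 1 in edgeR's quasi-likelihood fit, 0% of 22365 genes tested, and the lowest adjusted p was 0.53. Without adjustment 1123 genes, 5.02%, had a p under 0.05. DESeq2 called 104 genes higher (0.563%) and 12 lower (0.065%), together 0.628% of the genes to which it gave an adjusted p. Without the 31 cells of #m6c and #m14c it called 54 higher (0.309%) and 14 lower (0.0801%), together 0.389%. By edgeR 0 genes were higher and 0 lower in #m1 than in each of #m4, #m8 and #m10, and by DESeq2 2 were higher (0.00894%), or 1 without the 31 cells (0.0045%). Against #m10 alone edgeR called 0 genes, with 518 genes (2.32%) at a p under 0.05 without adjustment and 46 genes called higher (0.275%) and 3 lower (0.0179%) by DESeq2, together 0.293%. The separate comparison with #m4 gave 9 genes (0.0402%), with 1111 (4.97%) at a p under 0.05 without adjustment, and that with #m8 gave 7 genes (0.0313%). By DESeq2 232 genes were higher (1.42%) and 82 lower (0.503%) than in #m4, together 1.93%. Against #m8 these were 94 (0.627%) and 26 (0.173%), together 0.8%. Without the 31 cells DESeq2 gave 183 (1.16%) and 93 (0.591%) against #m4, together 1.75%. The counts without them were 88 (0.559%) and 33 (0.21%) against #m8, together 0.768%, and 26 (0.157%) and 4 (0.0241%) against #m10, together 0.181%.

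Against the peribiliary cluster #m4, 8 genes (0.0358%) rose in #m1 and 1 gene (0.00447%) fell, and these 9 were named after their values were seen. *Wif1*, a secreted inhibitor of Wnt ligands, fell: it was at 0.0727 and 1.04 CPM in #m1, 362 and 924 CPM in #m4, 6.03 CPM in #m8 and 0.536 CPM in #m10 (log2 fold change -10.53, standard error 1.22, adjusted p = 0.012 by the edgeR quasi-likelihood test, Benjamini-Hochberg adjusted). Both pools of #m4 were above every value of the other 3 clusters. *Smoc1*, a matrix-associated calcium-binding protein, was at 251 and 323 CPM in #m1, 10.4 and 6.27 CPM in #m4, 308 CPM in #m8 and 240.1 CPM in #m10 (log2 fold change 5.0, standard error 0.63). *Atp1b1*, the β1 subunit of the sodium-potassium pump, was at 85.2 and 134 CPM in #m1, 3.21 and 1.79 CPM in #m4, 34.5 CPM in #m8 and 23.7 CPM in #m10 (log2 fold change 5.42, standard error 0.77). The levels of *Atp1b1* in both pools of #m1 were above all the others, whereas the level of *Smoc1* in #m8 lay between those of both pools of #m1 and that in #m10 below them. *Smpdl3a*, a phosphodiesterase, was at 126 and 119.8 CPM in #m1, 4.94 and 2.99 CPM in #m4, 55.9 CPM in #m8 and 75.7 CPM in #m10 (log2 fold change 4.99, standard error 0.61). *Ccdc80*, a secreted matrix protein, was at 2609 and 2789 CPM in #m1, 496 and 1060.4 CPM in #m4, 1746 CPM in #m8 and 971 CPM in #m10 (log2 fold change 1.90, standard error 0.25), again with both pools of #m1 above the rest.

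*Fbln5*, which guides the assembly of elastic fibres, was at 2216 and 1780.0 CPM in #m1, 259 and 549.6 CPM in #m4, 1935 CPM in #m8 and 2243 CPM in #m10 (log2 fold change 2.30, standard error 0.34). *Gucy1a1*, a subunit of the nitric oxide receptor guanylate cyclase, was at 409 and 400.5 CPM in #m1, 43.9 and 66.6 CPM in #m4, 338 CPM in #m8 and 844 CPM in #m10 (log2 fold change 2.89, standard error 0.41). Both pools of #m4 were below all the others for both genes, and #m10 had the highest *Gucy1a1*. *Ccdc3*, which encodes a secreted coiled-coil protein, was at 137 and 66.9 CPM in #m1, 8.12 and 4.48 CPM in #m4, 247 CPM in #m8 and 213 CPM in #m10 (log2 fold change 4.04, standard error 0.49). The long non-coding RNA *Gm26776* was at 101 and 51.9 CPM in #m1, 5.88 and 3.88 CPM in #m4, 161 CPM in #m8 and 136 CPM in #m10 (log2 fold change 3.96, standard error 0.50). In GENCODE vM21 on GRCm38, *Ccdc3* lies on chromosome 2 from 5137776 to 5230878 on the plus strand and *Gm26776* from 5137749 to 5230864 on the minus strand, with *Gm13198* overlapping both. Smart-seq2 does not mark the strand, so reads of this pair cannot be told apart. Benjamini-Hochberg adjusted p of the edgeR test lay between 0.012 and 0.032 for these 8 genes, and the count rested on both pools of #m1, since without either one 0 genes were called higher. With sums per plate, 1 gene was called higher with the sex term and 1 with a plate term, while *Wif1* was still called lower in both, at log2 fold changes of -11.23 and -10.43. Without the 31 cells and with a plate term 11 were higher. Over 16 alternatives the 8 genes stayed higher in #m1, at log2 fold changes between 1.57 and 9.01, with *Atp1b1* at 4.39 to 6.03 and *Ccdc80* at 1.57 to 2.30. *Wif1* passed in 12 of the 16, at log2 fold changes from -12.04 to -9.47 over all of them.

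**Figure D3:**
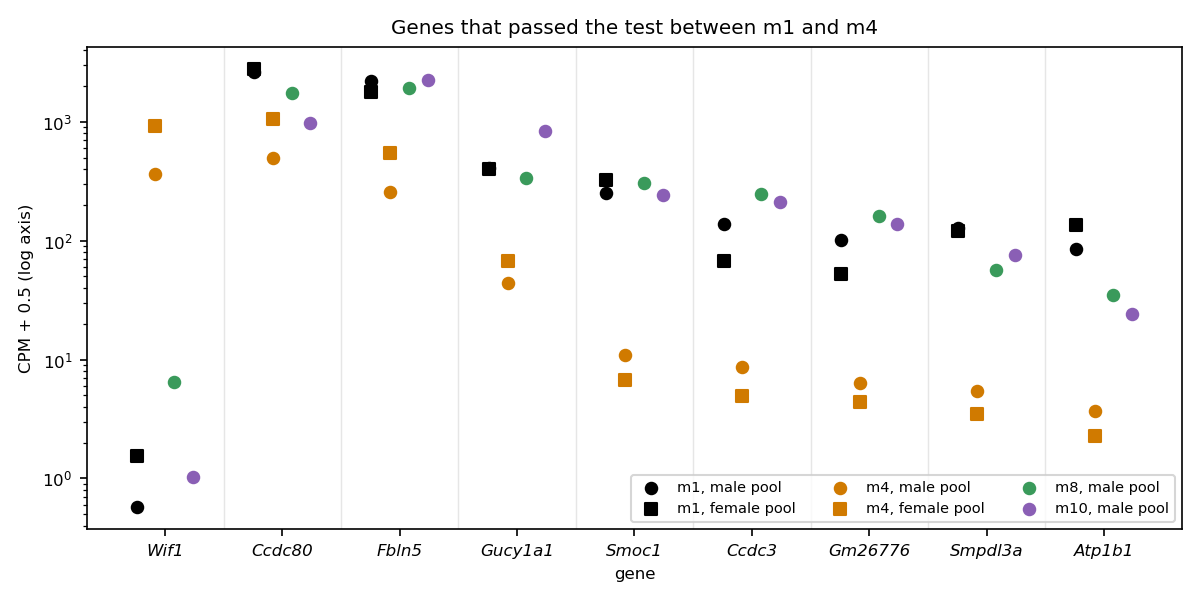
Level, as CPM plus 0.5 on a log axis, of the 9 genes that passed the test between #m1 and #m4, with 1 point per cluster and pool. *Wif1* is at 0.0727 and 1.04 CPM in the pools of #m1 against 362 and 924 CPM in those of #m4, and the other 8 genes lie the other way.

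The other genes known from peribiliary fibroblasts were mostly at lower levels in #m1 than in #m4, and 1 of 8 list members, *Wif1*, fell by edgeR while 0 rose. These 8 genes were chosen by the study on the same cells to describe #m4, so their direction is no independent evidence. *Thy1*, a membrane glycoprotein of fibroblasts, was at 32 and 13.1 CPM against 243 and 199 CPM in #m4 (log2 fold change -3.51, adjusted p = 0.65, edgeR). *Gfra2*, a receptor for neurturin, was at 51.4 and 28.1 CPM against 300.0 and 289 CPM in #m4, and *Nkd2*, an intracellular Wnt antagonist, at 31 and 61.5 CPM against 293 and 339.9 CPM in #m4. *Slit2*, an axon guidance ligand, was at 4.07 and 36.5 CPM against 99 and 339.9 CPM in #m4, and *Pi16*, a marker of adventitial fibroblasts, at 21.2 and 43.2 CPM against 283 and 813 CPM in #m4. *Col15a1*, a collagen next to basement membranes, was at 47.1 and 136 CPM against 416 and 143 CPM in #m4, where the female values were nearly equal. *Gli1*, a Hedgehog-driven transcription factor, was at 21.8 and 21.7 CPM against 46.7 and 2.69 CPM in #m4, so that its order differed between the sexes. The levels of #m8 and #m10 were near those of #m1 for *Thy1* (52.5 and 31.8 CPM) and *Nkd2* (45.7 and 21.1 CPM). The median log2 fold change of the list in #m1 was -3.18, -0.87 and 0.26 against #m4, #m8 and #m10, beside 0.25, 0.37 and 0.14 over all genes tested. For peribiliary genes, p without adjustment was under 0.05 in 1, 6, 1 and 1 against the mean, #m4, #m8 and #m10, and DESeq2 called 0, 0, 0 and 1 higher and 1, 5, 1 and 0 lower. Over all genes tested, 5.02%, 4.97%, 3.11% and 2.32% had such a p, and DESeq2 called 0.628%, 1.93%, 0.8% and 0.293%. These shares are the background of the list counts here and below. Peribiliary genes had medians of -1.90, 0.30 and 2.04 in the fit with a plate term and without the 31 cells. In that fit #m1 had 0 cells on Rb_573s, the plate of nearly all of #m8. Its medians against #m8, here and for the lists below, therefore rest on other clusters that link the plates.

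Plates 048s (male) and 058s (female) each held at least 5 cells of #m4 and of the 150 cells of #m1, so that they could be compared within a plate. Here 26 and 82 cells of #m1, all from #m1c and #m18c, were set against 13 and 9 cells of #m4, as ratios with 0.5 CPM added and with no test. At least 4-fold higher levels in #m1 on both plates were found for 1116 of 22365 genes (4.99%), and at least 4-fold lower levels for 174 (0.778%). The levels of #m4 rest on fewer cells, so a gene counted in a minority of cells can read near 0 there. How far this shaped the 2 counts was not tested. The 12 genes with the largest ratios on both plates in each direction, among those counted in at least 50% of the cells of the cluster where they were higher, were chosen after their values were seen. *Gria1*, an AMPA receptor subunit, was at 204 against 0 CPM on the male plate and 194 against 2.99 CPM on the female plate, in #m1 against #m4. *Fndc5*, the precursor of the secreted peptide irisin, was at 142 against 0.521 CPM on the male plate and 225 against 1.79 CPM on the female plate. *Ccbe1*, a secreted protein needed for lymphatic growth through VEGFC, was at 324 against 2.6 CPM on the male plate and 161 against 1.49 CPM on the female plate. *Ncam1*, *Smoc1* and *Atp1b1* were also among these 12, with *Dapk2*, *Sdc3*, *Phkg1*, *Sulf2*, *Galt* and *Adam33*. Over the pools *Sdc3* lay the other way in male cells, at 21.4 CPM in #m1 against 76 CPM in #m4, 154 CPM in #m8 and 229 CPM in #m10. *Galt* and *Sulf2* differed less in the male pools, at 76.3 and 67.1 CPM in #m1 against 53 and 42.8 CPM in #m4. Of the 12, only *Smoc1* and *Atp1b1* passed against #m4 by edgeR over the pools. Other fibroblast clusters had some of them at similar levels: *Ccbe1* was at 262 and 116 CPM and *Dapk2* at 93.4 and 192 CPM in #m8 and #m10. *Gria1* was at 64 and 30.6 CPM there, below its 139.9 and 179.9 CPM in the male and female pools of #m1.

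In the other direction, *Fgfr2*, a receptor for fibroblast growth factors, was at 29.5 against 374 CPM on the male plate and 11.7 against 208 CPM on the female plate. *Nbl1*, a secreted BMP antagonist, was at 43.3 against 898 CPM on the male plate and 90.6 against 754 CPM on the female plate. *Fzd1*, a Wnt receptor, was at 67.3 against 398 CPM on the male plate and 131 against 528 CPM on the female plate, and *Ptn*, the growth factor pleiotrophin, at 175 against 636 CPM on the male plate and 115 against 715 CPM on the female plate. *Gfra2*, *Pi16*, *Hmcn1*, *Csrp1*, *Polr2l*, *Sema5a*, *Col4a6* and *Plat* completed the 12. None of these 12 passed against #m4 by edgeR over the pools. *Polr2l* was at 20.9 CPM in #m1 and 23.8 CPM in #m4 in the male pools. Of the peribiliary list, *Wif1* was at 0 against 147 CPM on the male plate and 1.07 against 924 CPM on the female plate, *Thy1* at 16.6 against 44.5 CPM on the male plate and 12.9 against 199 CPM on the female plate and *Nkd2* at 47.3 against 117 CPM on the male plate and 60.9 against 339.9 CPM on the female plate. *Gli1* went the other way on both plates, at 34.9 against 3.38 CPM on the male plate and 23.4 against 2.69 CPM on the female plate, and *Col15a1* differed in direction, at 71.7 against 25 CPM on the male plate and 127 against 143 CPM on the female plate. Thus 6 of the 8 peribiliary genes were lower in #m1 on both plates, as were 3201 of 22365 genes (14.3%), and the low male level of *Gli1* and *Col15a1* in #m1 relative to #m4 was not seen within plate 048s. The ratio of *Fbln5* was larger on plate 048s, at 2632 against 76.5 CPM on the male plate and 1864 against 549.6 CPM on the female plate.

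**Figure D4:**
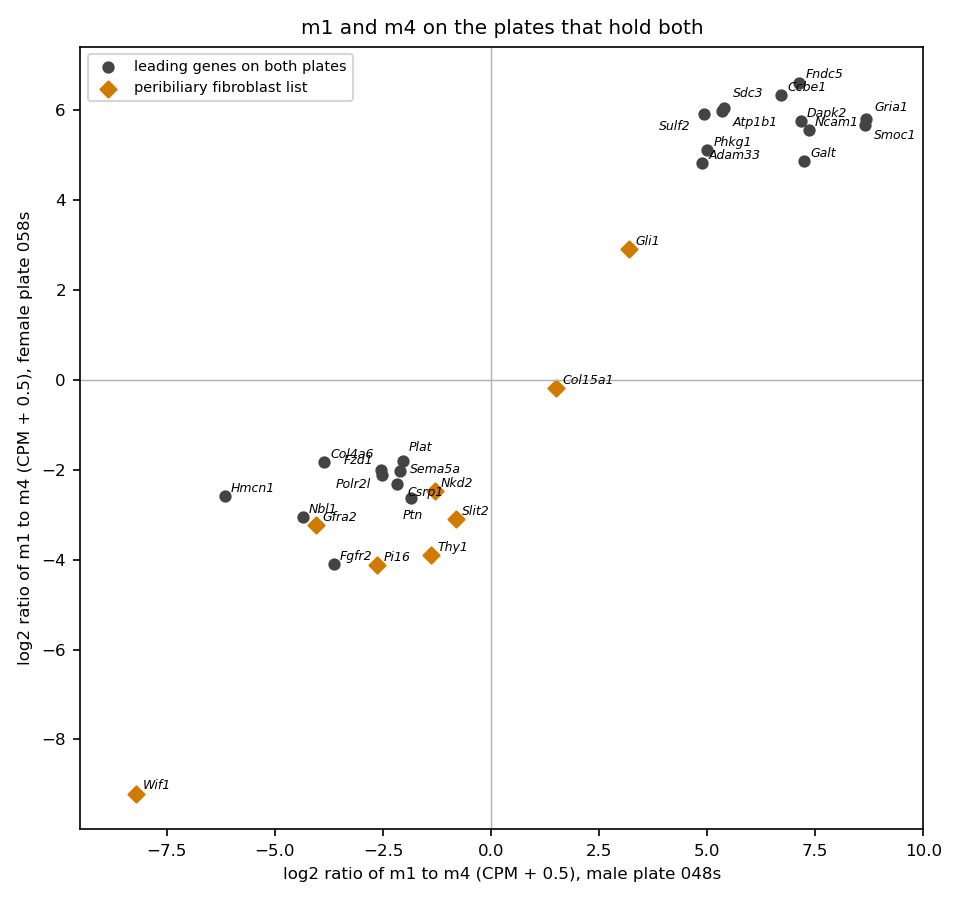
Log2 ratio of the level in #m1 to that in #m4, with 0.5 CPM added, on the male plate 048s (x axis) and on the female plate 058s (y axis), for the leading genes in each direction (dots) and the peribiliary fibroblast list (diamonds). *Wif1* lies at -8.21 and -9.20, *Gria1* at 8.68 and 5.80, and *Gli1* at 3.19 and 2.91, apart from the other peribiliary genes.

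Against #m8, 7 genes fell in #m1 (0.0313%) and 0 rose, with 696 genes (3.11%) at a p under 0.05 without adjustment and 94 called higher by DESeq2. They were abundant transcripts, and were named after their values were seen. *Col1a1* and *Col1a2*, which encode the chains of type I collagen, were at 3114 and 3219 CPM and 2582 and 3497 CPM in the male and female pools of #m1 and at 6821 and 6304 CPM in #m8 (log2 fold changes -1.42 and -1.54, adjusted p = 0.0017 and 0.035 by the edgeR quasi-likelihood test, Benjamini-Hochberg adjusted). *Gsn*, the actin-severing protein gelsolin, was at 7161 and 7951 CPM against 14075 CPM (log2 fold change -1.33). The other 4 were ribosomal RNA or repeat-like entries, *mt-Rnr2*, *Rn18s-rs5* and the pair of *Yam1* entries, which are reported as uncertain because reads of near-identical copies may be split. Since 98.1% of #m8 came from plate Rb_573s and its cells were shallow, cluster, plate and depth cannot be told apart here. With a plate term 0 genes were called lower, with cells thinned to 50000 counts 2, and the log2 fold change of *Col1a1* ranged from -1.56 to -0.10 over the alternatives.

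General fibroblast genes were abundant in #m1, and 16 of the 17 on the list exceeded 10 CPM in both pools. By edgeR 0 of 17 passed against #m4 or #m10 or the mean of the 3 clusters, and 3 of 17 fell against #m8, the *Col1a1*, *Col1a2* and *Gsn* of the previous comparison. For general fibroblast genes, p without adjustment was under 0.05 in 4, 7, 5 and 5 against the mean, #m4, #m8 and #m10, and DESeq2 called 1, 1, 0 and 2 higher and 0, 1, 2 and 0 lower. General fibroblast genes had medians of 0.04, -0.79 and 0.38 against #m4, #m8 and #m10 with the pool sums, and 0.21, -0.10 and 0.81 in the fit with a plate term and without the 31 cells. *Dcn*, the proteoglycan decorin, was at 4855 and 3454 CPM in the male and female pools of #m1, *Lum*, the proteoglycan lumican, at 2255 and 1951 CPM, and *Fbln1*, the matrix glycoprotein fibulin-1, at 2569 and 3022 CPM. *Dpt*, the matrix protein dermatopontin, was at 1448 and 1845 CPM in #m1, 831 and 352 CPM in #m4, 1879.7 CPM in #m8 and 1551 CPM in #m10, with #m4 lowest. The member under 10 CPM was *Mfap5*, a microfibril protein of adventitial fibroblasts, at 3.63 and 1.66 CPM. *Dpp4*, a peptidase that marks interstitial fibroblast progenitors in other organs, was at 12.3 and 10.3 CPM in #m1, 0.157 and 0.299 CPM in #m4, 0.34 CPM in #m8 and 0.179 CPM in #m10. This level lay in few cells: *Dpp4* was at 196 and 167 CPM in #m14c and at 3.13 and 0.519 CPM in the 150 cells of #m1c and #m18c. Among genes of the *Wt1*+ fibroblasts of the liver capsule, 0 of 5 passed in any of the comparisons by edgeR. For *Wt1*+ fibroblast genes, p without adjustment was under 0.05 in 1, 2, 2 and 2 against the mean, #m4, #m8 and #m10, and DESeq2 called 0, 1, 0 and 0 higher. *Wt1*+ fibroblast genes had medians of 1.56, 0.14 and 1.60 against #m4, #m8 and #m10 with the pool sums, and 1.07, -0.39 and 0.18 in the fit with a plate term and without the 31 cells. *Wt1*, a transcription factor, was at 0.436 and 14.8 CPM in #m1, 1.1 and 2.99 CPM in #m4, 1.85 CPM in #m8 and 4.46 CPM in #m10, and in #m9 at 181 and 202 CPM. *Fbln2*, the matrix protein fibulin-2, was the most abundant of the 5 in #m1, at 71.4 and 119 CPM in #m1, 11.8 and 6.87 CPM in #m4, 44.3 CPM in #m8 and 13.8 CPM in #m10, and was at 953 and 1741 CPM in #m9.

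The 11 fibrillar collagens summed to 9706 and 12737 CPM in #m1, 16601 and 17744 CPM in #m4, 20647 CPM in #m8 and 8884 CPM in #m10, and 2 of 9 tested members fell against #m8. Their median log2 fold change was -0.42, -1.14 and 0.35 against #m4, #m8 and #m10. For fibrillar collagens, p without adjustment was under 0.05 in 3, 3, 5 and 1 against the mean, #m4, #m8 and #m10, and DESeq2 called 0, 0, 2 and 0 lower. Fibrillar collagens had medians of -0.40, -0.20 and 0.86 in the fit with a plate term and without the 31 cells. *Col3a1*, the collagen of reticular fibres, was at 3281 and 5017 CPM in #m1, 5384 and 5698 CPM in #m4, 6493 CPM in #m8 and 3637 CPM in #m10. Of 26 other collagens tested 0 passed in any comparison, at medians of 0.07, 0.55 and -0.32. For other collagens, p without adjustment was under 0.05 in 2, 2, 2 and 0 against the mean, #m4, #m8 and #m10, and DESeq2 called 0, 1, 1 and 0 lower. Other collagens had medians of 0.39, -0.06 and 0.34 in the fit with a plate term and without the 31 cells. *Col6a1*, a chain of the beaded filament collagen VI, was at 1361 and 2043 CPM, and *Col14a1*, a fibril-associated collagen, at 1229 and 1587 CPM. The 23 basement membrane genes had medians of -0.64, -0.82 and -0.53 and 0 passed. For basement membrane genes, p without adjustment was under 0.05 in 2, 2, 4 and 0 against the mean, #m4, #m8 and #m10, and DESeq2 called 0 in each. Basement membrane genes had medians of 0.07, -0.20 and 0.37 in the fit with a plate term and without the 31 cells. *Nid1*, the linker protein nidogen-1, was at 442 and 420.0 CPM in #m1, 1093 and 720.2 CPM in #m4, 1003 CPM in #m8 and 765 CPM in #m10, and *Lamb2*, the laminin β2 chain, at 295 and 684 CPM in #m1, 593 and 731 CPM in #m4, 715 CPM in #m8 and 564 CPM in #m10. For basement membrane genes 9 of 23 were lower in #m1 than in #m4, #m8 and #m10 in the male pool and than in #m4 in the female pool, where 7.16% of all genes tested were. Other lists had such counts too, among them 7 of 27 other collagens and 6 of 22 elastic fibre genes.

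Small leucine-rich proteoglycans, which bind and space collagen fibrils, summed to 18732 and 15819 CPM in #m1, and 0 of 14 tested passed in any comparison, at medians of 0.32, -0.57 and 0.12. For small leucine-rich proteoglycans, p without adjustment was under 0.05 in 2, 4, 2 and 1 against the mean, #m4, #m8 and #m10, and DESeq2 called 0 in each. Small leucine-rich proteoglycans had medians of 0.14, 0.01 and 0.21 in the fit with a plate term and without the 31 cells. *Bgn*, biglycan, was at 4314 and 3979 CPM and *Prelp*, a proteoglycan that anchors basement membranes, at 3135 and 2447 CPM. In the elastic fibre list 1 of 22 genes, *Fbln5*, rose against #m4, at list medians of -0.31, -0.37 and 0.01. For elastic fibre genes, p without adjustment was under 0.05 in 5, 7, 4 and 5 against the mean, #m4, #m8 and #m10, and DESeq2 called 0, 2, 0 and 1 higher and 0, 2, 0 and 0 lower. Elastic fibre genes had medians of 0.03, -0.08 and 0.34 in the fit with a plate term and without the 31 cells. *Mfap4*, a microfibril-associated glycoprotein, was at 1328 and 2190.2 CPM in #m1, 1217 and 2613 CPM in #m4, 2085 CPM in #m8 and 988 CPM in #m10, and *Ltbp4*, which stores latent TGF-β in the matrix, at 879.9 and 1219.6 CPM in #m1, 2040.5 and 1549 CPM in #m4, 2156 CPM in #m8 and 2138 CPM in #m10. Of 32 matrix proteases and inhibitors 0 passed, at medians of 0.56, -0.01 and -0.02. For matrix proteases and inhibitors, p without adjustment was under 0.05 in 2, 7, 2 and 2 against the mean, #m4, #m8 and #m10, and DESeq2 called 0, 1, 0 and 0 higher. Matrix proteases and inhibitors had medians of 0.53, -0.10 and 0.28 in the fit with a plate term and without the 31 cells. *Mmp2*, a gelatinase, was at 1444 and 1103 CPM in #m1, 3431 and 2238 CPM in #m4, 2203 CPM in #m8 and 1395 CPM in #m10, *Timp3*, an inhibitor of metalloproteinases, at 1618 and 972 CPM and *Adamts2*, the procollagen N-proteinase, at 1441 and 1168 CPM in #m1.

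**Figure D5:**
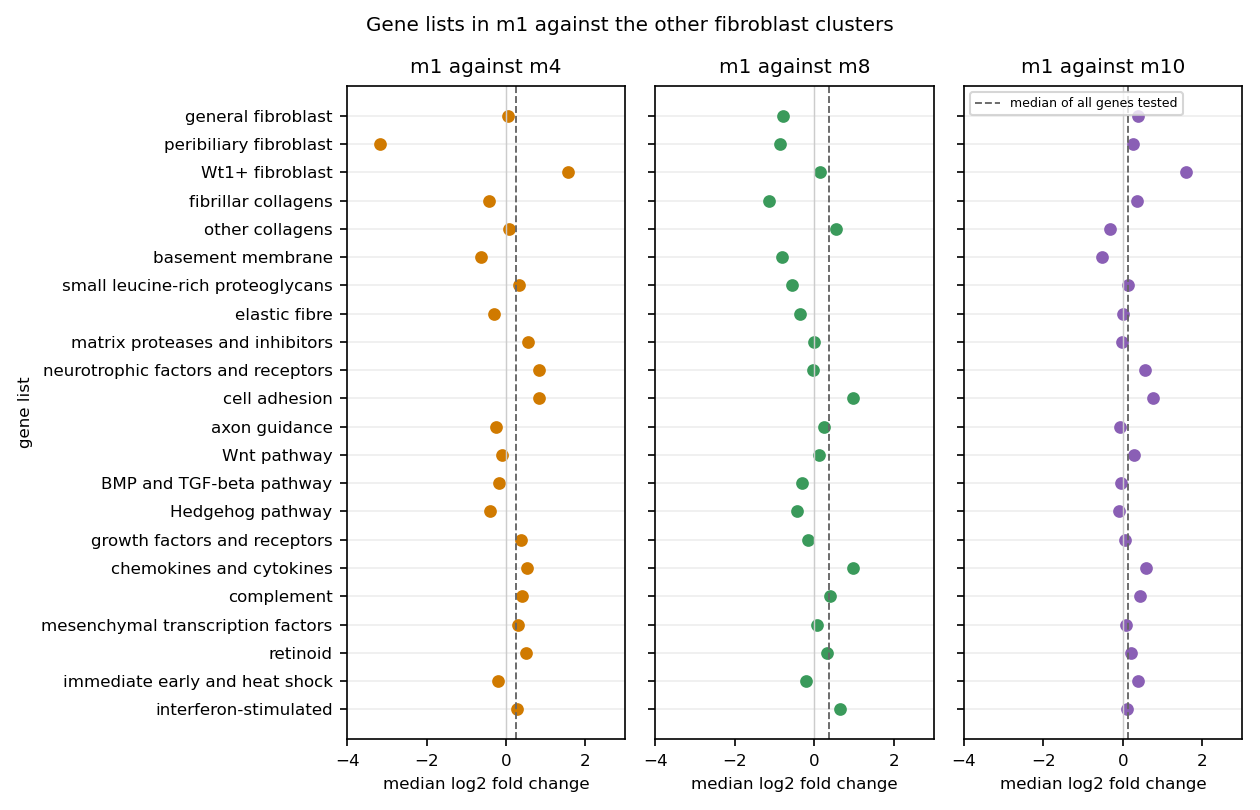
Median log2 fold change of 22 gene lists, without the marker lists of other cell types, in #m1 against #m4, #m8 and #m10, with 1 dot per list and a dashed line at the median of all genes tested (0.25, 0.37 and 0.14). The peribiliary list is at -3.18 against #m4, the lowest of those plotted, and the endothelial and immune marker lists, not plotted, are at 4.92 and 3.47.

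Among signalling genes, the Wnt pathway list had 1 of 39 tested members lower against #m4, *Wif1*, and 0 others passed, at medians of -0.10, 0.11 and 0.29 against #m4, #m8 and #m10. For Wnt genes, p without adjustment was under 0.05 in 5, 6, 2 and 2 against the mean, #m4, #m8 and #m10, and DESeq2 called 0, 0, 1 and 0 higher and 2, 4, 1 and 0 lower. Wnt genes had medians of -0.30, 0.01 and 0.64 in the fit with a plate term and without the 31 cells. *Sfrp1*, a secreted Wnt antagonist, was at 1296 and 1600.0 CPM in #m1, 1152 and 1274 CPM in #m4, 741 CPM in #m8 and 594 CPM in #m10, and *Dkk3*, a member of the Dickkopf family, at 621 and 569.6 CPM. In the BMP and TGF-β list 0 of 44 passed, at medians of -0.17, -0.31 and -0.05. For BMP and TGF-β genes, p without adjustment was under 0.05 in 1, 6, 0 and 0 against the mean, #m4, #m8 and #m10, and DESeq2 called 0, 2, 1 and 0 higher and 0, 2, 0 and 0 lower. BMP and TGF-β genes had medians of 0.18, -0.41 and 0.62 in the fit with a plate term and without the 31 cells. *Gdf10*, a ligand of the TGF-β family, was at 1306 and 1047 CPM in #m1, 2094 and 1643 CPM in #m4, 2575 CPM in #m8 and 1980.3 CPM in #m10, so that both pools of #m1 lay below every value of the others. *Fstl1*, a secreted modulator of BMP signals, was at 1045 and 824 CPM and *Tgfbi*, a matrix protein induced by TGF-β, at 1707 and 1559 CPM. In the Hedgehog list 0 of 12 passed, at medians of -0.40, -0.44 and -0.09. For Hedgehog genes, p without adjustment was under 0.05 in 0, 2, 0 and 0 against the mean, #m4, #m8 and #m10, and DESeq2 called 0, 1, 0 and 0 higher and 0, 1, 0 and 0 lower. Hedgehog genes had medians of 0.36, 0.40 and 0.69 in the fit with a plate term and without the 31 cells. *Ptch1*, the Hedgehog receptor, was at 42.3 and 55 CPM in #m1, 199.7 and 143 CPM in #m4, 64.2 CPM in #m8 and 60.1 CPM in #m10, and *Boc*, a co-receptor, at 86.8 and 100.4 CPM in #m1, 197 and 151 CPM in #m4, 275 CPM in #m8 and 167 CPM in #m10. Growth factors and their receptors gave 0 of 43 in any comparison, at medians of 0.38, -0.17 and 0.07. For growth factors and receptors, p without adjustment was under 0.05 in 3, 11, 5 and 1 against the mean, #m4, #m8 and #m10, and DESeq2 called 1, 4, 1 and 1 higher and 0, 1, 0 and 0 lower. Over all genes tested, 5.02%, 4.97%, 3.11% and 2.32% had such a p, and DESeq2 called 0.628%, 1.93%, 0.8% and 0.293%. Growth factors and receptors had medians of 0.55, -0.07 and 0.12 in the fit with a plate term and without the 31 cells. *Igfbp3*, which binds insulin-like growth factors, was at 2878 and 2663 CPM in #m1, 685 and 673 CPM in #m4, 3675 CPM in #m8 and 3686 CPM in #m10 (log2 fold change 2.05, adjusted p = 0.64 by edgeR against #m4), with #m4 lowest.

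Neurotrophic factors and receptors gave 0 of 26 in any comparison, at medians of 0.82, -0.04 and 0.55. For neurotrophic factors and receptors, p without adjustment was under 0.05 in 1, 4, 0 and 0 against the mean, #m4, #m8 and #m10, and DESeq2 called 0, 2, 0 and 0 higher and 0, 1, 0 and 0 lower. Neurotrophic factors and receptors had medians of 0.49, -0.09 and 1.59 in the fit with a plate term and without the 31 cells. *Ntrk2*, the receptor of brain-derived neurotrophic factor, was at 296 and 497 CPM in #m1, 929 and 1395 CPM in #m4, 274 CPM in #m8 and 188 CPM in #m10. Both pools of #m1 thus lay below those of #m4 for *Ntrk2*. Cell adhesion genes gave 0 of 28, at medians of 0.84, 0.96 and 0.75, and 10 of the 30 genes listed were higher in #m1 than in #m4, #m8 and #m10 in the male pool and than in #m4 in the female pool, where 17.1% of all genes tested were. Other lists had such counts as well, among them 7 of 19 interferon-stimulated genes and 6 of 8 endothelial markers. For cell adhesion genes, p without adjustment was under 0.05 in 4, 9, 3 and 3 against the mean, #m4, #m8 and #m10, and DESeq2 called 1, 5, 0 and 0 higher and 0, 1, 0 and 0 lower. Cell adhesion genes had medians of 0.88, -0.06 and 0.34 in the fit with a plate term and without the 31 cells. *Icam1*, a ligand of leukocyte integrins, was at 334 and 423 CPM in #m1, 234 and 236 CPM in #m4, 215 CPM in #m8 and 196 CPM in #m10, and *Vcam1*, another such ligand, at 275 and 117 CPM in #m1, 114 and 69.3 CPM in #m4, 84.2 CPM in #m8 and 246 CPM in #m10. The list holds *Cdh5* and *Esam*, which endothelial cells express, and *Cdh5* was at 94 and 41.9 CPM in #m14c against 0.576 and 3.73 CPM in the 150 cells. Axon guidance genes gave 0 of 38, at medians of -0.25, 0.24 and -0.07. For axon guidance genes, p without adjustment was under 0.05 in 2, 3, 1 and 1 against the mean, #m4, #m8 and #m10, and DESeq2 called 0, 0, 0 and 1 higher and 0, 3, 0 and 0 lower. Axon guidance genes had medians of 0.23, -0.68 and -0.14 in the fit with a plate term and without the 31 cells. *Nrp1*, a semaphorin and VEGF co-receptor, was at 505 and 583 CPM in #m1, 669 and 882 CPM in #m4, 256 CPM in #m8 and 613 CPM in #m10, and *Plxna4*, a semaphorin receptor, at 329 and 294 CPM in #m1, 147 and 139 CPM in #m4, 263 CPM in #m8 and 602 CPM in #m10.

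Chemokines and cytokines gave 0 of 30 passed in any comparison, at medians of 0.52, 0.96 and 0.58. For chemokines and cytokines, p without adjustment was under 0.05 in 5, 4, 0 and 2 against the mean, #m4, #m8 and #m10, and DESeq2 called 0, 0, 0 and 1 higher and 0, 1, 0 and 0 lower. Chemokines and cytokines had medians of 0.39, 0.05 and 0.46 in the fit with a plate term and without the 31 cells. *Cxcl12*, the ligand of CXCR4, was at 3528 and 3841 CPM in the male and female pools of #m1. *Ackr3*, the receptor that removes CXCL12, was at 589 and 699.5 CPM in #m1, 123 and 93.5 CPM in #m4, 249 CPM in #m8 and 279.7 CPM in #m10 (log2 fold change 2.58, adjusted p = 0.73 by edgeR against #m4), with both pools of #m1 above all others. Complement genes gave 0 of 26, at medians of 0.40, 0.38 and 0.43, led by the inhibitor *Serping1* at 3539 and 3190.5 CPM and by *C3*, the central component, at 2156 and 3196 CPM. For complement genes, p without adjustment was under 0.05 in 4, 2, 1 and 1 against the mean, #m4, #m8 and #m10, and DESeq2 called 0, 0, 0 and 1 higher. Complement genes had medians of 0.21, -0.06 and 0.44 in the fit with a plate term and without the 31 cells. Interferon-stimulated genes gave 0 of 19, at medians of 0.28, 0.64 and 0.11, with *Iigp1*, an interferon-inducible GTPase, at 283 and 96.2 CPM in #m1, 125 and 92.6 CPM in #m4, 24.5 CPM in #m8 and 74.1 CPM in #m10. For interferon-stimulated genes, p without adjustment was under 0.05 in 1, 0, 4 and 0 against the mean, #m4, #m8 and #m10, and DESeq2 called 0 in each. Interferon-stimulated genes had medians of 0.27, -0.86 and -0.15 in the fit with a plate term and without the 31 cells. Immediate early and heat shock genes, which dissociation can induce, gave 0 of 20, at medians of -0.20, -0.20 and 0.39, and summed to 13004 and 11275 CPM in #m1, 16769 and 9942 CPM in #m4, 14303 CPM in #m8 and 10807 CPM in #m10. For immediate early and heat shock genes, p without adjustment was under 0.05 in 1, 1, 3 and 0 against the mean, #m4, #m8 and #m10, and DESeq2 called 1, 1, 1 and 0 lower. Immediate early and heat shock genes had medians of -0.24, -0.11 and -0.02 in the fit with a plate term and without the 31 cells. *Fos*, an AP-1 subunit, was at 2098 and 2239 CPM in #m1. In the retinoid list 0 of 20 passed, at medians of 0.50, 0.31 and 0.22. For retinoid genes, p without adjustment was under 0.05 in 4, 2, 2 and 0 against the mean, #m4, #m8 and #m10, and DESeq2 called 0, 1, 0 and 0 higher. Retinoid genes had medians of 0.62, -0.23 and 0.24 in the fit with a plate term and without the 31 cells. *Dhrs3*, a retinal reductase, was at 435 and 622 CPM in #m1, 108 and 228 CPM in #m4, 269 CPM in #m8 and 215 CPM in #m10 (log2 fold change 1.79, adjusted p = 0.17 by edgeR against #m4). Of 57 mesenchymal transcription factors 0 passed, at medians of 0.30, 0.06 and 0.08. For mesenchymal transcription factors, p without adjustment was under 0.05 in 3, 8, 3 and 3 against the mean, #m4, #m8 and #m10, and DESeq2 called 0, 2, 0 and 0 higher and 0, 1, 0 and 0 lower. Mesenchymal transcription factors had medians of 0.58, -0.34 and 0.19 in the fit with a plate term and without the 31 cells. *Tcf21*, a factor of fibroblasts and stellate cells, was at 273 and 323 CPM in #m1, 253 and 335 CPM in #m4, 208 CPM in #m8 and 246 CPM in #m10, and *Heyl*, a Notch target, at 183 and 328 CPM in #m1, 53.2 and 101 CPM in #m4, 208 CPM in #m8 and 414 CPM in #m10.

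The 12 largest positive fold changes against the mean of the 3 clusters, among genes counted in at least 50% of the cells of #m1 and with the same sign in each pool, did not pass the test and were listed after this was known. Some of them lay in the 31 cells with RNA of other types. *Dnase1l3*, a DNase of sinusoidal endothelium and macrophages, was at 97.4 and 77.7 CPM in the male and female pools of #m1, 1735 and 1039 CPM in #m14c and 14.5 and 18.5 CPM in #m1c and #m18c. *Clec4g*, a lectin of sinusoidal endothelium, was at 50.3 and 149 CPM in #m1, 897 and 1939 CPM in #m14c and 7.24 and 39.7 CPM in the 150 cells, and *Egfl7*, an endothelial secreted factor, at 69.7 and 67 CPM, 1222 and 965 CPM and 12.5 and 11.9 CPM. *Slc2a4*, the insulin-regulated glucose transporter GLUT4, was at 9.96 and 28.9 CPM in #m1, 0.392 and 7.17 CPM in #m4, 1.12 CPM in #m8 and 0.0893 CPM in #m10, with 11.2 and 6.6 CPM in the 150 cells. *Atp1b1*, *Ncam1*, *Smpdl3a* and *Fbln2* were also among the 12, and their log2 fold changes without the 31 cells and with a plate term were 4.07, 2.49, 1.29 and 1.71, all positive. Those of *Sorbs2* and *Clec4g* turned to -0.57 and -0.47. Negative ones were led by *Klhl32* and *Kirrel*, at log2 fold changes of -3.67 and -2.58 (standard errors 1.83 and 1.13). *Kirrel*, an adhesion molecule of the immunoglobulin family, was at 21.5 and 14.5 CPM in #m1, 96.8 and 38.5 CPM in #m4, 223 CPM in #m8 and 183 CPM in #m10. *Col4a5*, a collagen chain of basement membranes, was at 35.9 and 51.3 CPM in #m1, 382 and 327 CPM in #m4, 62.8 CPM in #m8 and 73.7 CPM in #m10.

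Markers of the other cell types that the sort could hold were counted over their whole lists, and by edgeR 0 members of these 9 lists passed in any comparison. Endothelial markers summed to 260.1 and 218 CPM in the male and female pools of #m1 and to 18.4 to 107 CPM in the other 3 clusters, with 5 of 8 genes above 10 CPM in both pools of #m1. Without the 31 cells the sums were 26.2 and 61.4 CPM. Their median log2 fold changes against #m4, #m8 and #m10 were 4.92, 4.40 and 4.69. For endothelial markers, p without adjustment was under 0.05 in 7, 5, 1 and 3 against the mean, #m4, #m8 and #m10, and DESeq2 called 4, 2, 0 and 1 higher. Endothelial markers had medians of -0.22, -0.43 and 0.38 in the fit with a plate term and without the 31 cells. Hepatocyte markers summed to 1079 and 1681 CPM against 510.2 to 829 CPM, with 7 of 8 genes above 10 CPM, and to 896 and 1642 CPM without the 31 cells, with medians of 1.26, -0.47 and 0.74 over all 181. For hepatocyte markers, p without adjustment was under 0.05 in 0, 4, 0 and 0 against the mean, #m4, #m8 and #m10, and DESeq2 called 0, 1, 0 and 0 higher. Hepatocyte markers had medians of 0.73, 0.10 and 0.06 in the fit with a plate term and without the 31 cells. *Alb* was counted in 97.2% (interval 93.7 to 99.1%) of the cells of #m1, and with at least 20 counts in 43.6%. Immune markers summed to 80.9 and 227 CPM against 19.6 to 128 CPM, with *Ptprc*, the pan-leukocyte CD45, at 0.727 and 2.17 CPM, *Cd68*, a macrophage gene, at 6 and 15.3 CPM, and 2 of 8 genes above 10 CPM. The immune list had medians of 3.47, 2.12 and 4.31. For immune markers, p without adjustment was under 0.05 in 3, 1, 2 and 0 against the mean, #m4, #m8 and #m10, and DESeq2 called 2, 1, 0 and 0 higher. Immune markers had medians of 0.32, -3.35 and -0.50 in the fit with a plate term and without the 31 cells. Mural cell markers summed to 2413 and 3623 CPM against 2234 to 3799.6 CPM, with 9 of 12 above 10 CPM, at medians of 0.40, -0.43 and -0.07. For mural cell markers, p without adjustment was under 0.05 in 0, 2, 1 and 4 against the mean, #m4, #m8 and #m10, and DESeq2 called 0, 1, 0 and 0 higher. Mural cell markers had medians of 0.52, -0.45 and -0.38 in the fit with a plate term and without the 31 cells. *Acta2*, smooth muscle actin, was at 182 and 752 CPM in #m1, 249 and 1152 CPM in #m4, 200.3 CPM in #m8 and 75.1 CPM in #m10, higher in both female pools, which lay on plate 058s. Stellate cell markers summed to 2351 and 2096 CPM against 1646 to 3152 CPM, with 7 of 10 above 10 CPM, at medians of 0.49, 0.09 and 0.09. For hepatic stellate cell markers, p without adjustment was under 0.05 in 2, 2, 1 and 0 against the mean, #m4, #m8 and #m10, and DESeq2 called 0, 0, 1 and 0 lower. Hepatic stellate cell markers had medians of 0.33, 0.00 and -0.19 in the fit with a plate term and without the 31 cells. Of its defining genes *Reln* was at 0.908 and 5.97 CPM and *Lrat*, which esterifies retinol, at 77.8 and 93.7 CPM in #m1, 22.9 and 111 CPM in #m4, 55 CPM in #m8 and 337 CPM in #m10.

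Mesothelial markers summed to 1.45 and 5.13 CPM in #m1 against 0.774 to 9.56 CPM, with *Msln* at 0 and 1.13 CPM and *Upk3b* at 0 and 1.83 CPM. Schwann cell markers summed to 26.8 and 15.7 CPM against 1.79 to 19.5 CPM, and to 175 CPM in the male cells of #m14c. Their medians against #m4, #m8 and #m10 were 0.72, 4.75 and 1.44, at low levels. Their defining gene *Sox10* was counted in 0 of 181 cells of #m1, which allows a share of up to 1.66% (3 counts of the total), a limit on cells with a count and not on cells that express the gene. Perineurial markers summed to 68.1 and 71.2 CPM against 60.8 to 141 CPM, with *Itgb4* at 13.7 and 0.0845 CPM. *Slc2a1*, their other defining gene, was counted in 22.7% of male and 76.3% of female cells of #m1, against 19.2% in #m8 and 26% in #m10. The list reached 775 CPM in the female cells of #m6c. Its medians against #m4, #m8 and #m10 were -1.54, 3.59 and 1.82. Cholangiocyte markers summed to 56.6 and 4.28 CPM against 3.58 to 12.9 CPM, with *Epcam* at 1.34 and 0 CPM and *Krt19* at 0.472 and 0.225 CPM, at medians of 1.77, 2.56 and 2.46. Without the 31 cells the sums were 53.9 and 4.61 CPM. *Spp1*, another list member, was counted in 84.1% of male and 2.15% of female cells of #m1, against 18.6% in #m8 and 1.57% in #m10. *Krt18* and *Epcam* were counted in 44.3% and 31.8% of its male cells. For cholangiocyte markers, p without adjustment was under 0.05 in 1, 1, 1 and 1 against the mean, #m4, #m8 and #m10, and DESeq2 called 1, 0, 0 and 1 higher. Cholangiocyte markers had medians of 1.38, 1.38 and 0.03 in the fit with a plate term and without the 31 cells. The genes above 10 CPM in both pools of #m1 were 0 of 7, 0 of 10, 1 of 6 and 0 of 7 in these lists. Without the 31 cells and with a plate term, the median of 6 of all 32 lists had another sign against #m4, 16 against #m8 and 10 against #m10. Clusters #m1 and #m8 shared no plate in that fit, so it is no comparison of them within a plate.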

How the data were processed

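Smart-seq2 was run on single liver cells. The deposited values are raw counts: the authors demultiplexed with bcl2fastq, mapped reads (the submitters' processing notes name Bowtie, Bowtie2 and the builds GRCm38 and mm10), counted with featureCounts of Subread, and left out cells by count and gene minima, by mitochondrial and spike-in share and where RNA of several cell types was evident. An upper limit on genes served against doublets. No doublet caller was run here. Without molecular identifiers, reads are not independent molecules. The authors' cluster and annotation columns were used as deposited. The 92 ERCC spike-ins were dropped and counts summed per multilevel cluster and pool (at least 5 cells, 18 sums), and fitted with edgeR 4.0.16 in R 4.3.3: TMM, filterByExpr, 1 coefficient per cluster, a sex term, quasi-likelihood test, Benjamini-Hochberg over 22365 genes. A gene passed at an adjusted p under 0.05 and an absolute log2 fold change of at least 1. Standard errors are the log2 fold change over the root of the test's F. The pool is the replicate, and since its mice are not named, p-values measure the spread between these sums. The male and female numbers pair the pools only by sex, which is the term. Alternatives were DESeq2 1.42.0, RLE factors, no filter, fewer sums, thinning to 50000 counts, sums per plate and left-out sums; plate terms and #m1 without #m6c and #m14c were chosen after seeing the data. Shares and levels were computed in Python 3.11.15 with pandas 2.3.3, scipy 1.17.1 and numpy 2.4.6. The fit was tested on simulated counts. The members, the 32 gene lists and the tests were chosen with earlier results of these data known. Named genes were the marker and fibroblast lists, up to 4 members of every other list with the highest CPM in #m1 and any called, the defining markers of other cell types, and the 12 largest called fold changes in each direction, of which there were 0. The leading genes of the plate comparison and of the mean comparison were chosen after their values were seen. Values of some list members are not reported here.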

Additional observations from a re-analysis of the deposited data

How the results depend on the processing

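Over the 16 genes called against #m4 or #m8, 0 of 256 fold changes under the alternatives reversed, 141 still passed and 115 no longer did. Against the mean of #m4, #m8 and #m10, the count of genes higher in #m1 was 0 in all fits by edgeR, and DESeq2 gave 104 higher and 12 lower, or 54 and 14 without #m6c and #m14c. Higher than each of the 3 clusters were 0 genes by edgeR, 2 by DESeq2 and 1 by DESeq2 without #m6c and #m14c, and lower than each 0 in all fits. DESeq2 called 232 genes higher and 82 lower against #m4, 94 and 26 against #m8, and 46 and 3 against #m10, and without #m6c and #m14c 183 and 93, 88 and 33, and 26 and 4. Against #m4 the 8 higher and 1 lower became 24 and 13 with sums of the 4 fibroblast clusters only, 2 and 0 with sums of at least 10 cells, which leave out the female #m4, 18 and 5 with cells thinned to 50000 counts, 1 higher with sums per plate and the sex term, 1 higher with the plate term, and 9 and 1 without #m6c and #m14c, or 11 and 1 with the plate term as well. Leaving out 1 sum of #m1 or #m4 gave 0 to 8 higher and 0 to 1 lower against #m4 and 2 to 6 lower against #m8, with 0 higher without either sum of #m1 and 2 higher and 0 lower without the female #m4. The 7 genes lower against #m8 became 2 with sums of at least 10 cells, 2 after thinning, 1 with sums per plate and the sex term, and 0 with the plate term, with or without #m6c and #m14c. Against #m10 sums of at least 10 cells gave 1 higher. Without the replicate block, that is without the sex term that pairs the pools, 6 genes were higher and 1 lower against #m4 and 1 was lower against #m8. Where construction does not show it (fewer sums or cells), the cause was not tested. Over all genes the median log2 fold change against #m4, #m8 and #m10 was 0.25, 0.37 and 0.14 with TMM and 0.12, 0.30 and 0.07 with RLE factors. With at least 20 counts *Ncam1* was in 26% and *Ngfr* in 40.3% of cells, and after thinning in 38.3% and 50.6%. #m8 and #m10 had 1 sum each, so their own spread between pools was not measured.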

Other observations

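By DESeq2, *Ifitm10* and *Pgm5* were higher in #m1 than in each of #m4, #m8 and #m10, and each was counted in few cells. *Ifitm10*, of the interferon-induced transmembrane family, was at 9.85 and 8.85 CPM in #m1, 0.666 and 0.896 CPM in #m4, 0.0973 CPM in #m8 and 0.0893 CPM in #m10, counted in 13.3% (interval 8.68 to 19.1%) of the cells of #m1, and reached 82.7 and 79 CPM in #m14c against 6.66 and 4.61 CPM in #m1c and #m18c. It was the gene that DESeq2 still called against each of the 3 clusters without #m6c and #m14c, at log2 fold changes of 2.88, 5.51 and 5.98. *Pgm5*, a phosphoglucomutase-like protein of muscle adhesion sites, was at 16.4 and 2.62 CPM in #m1, 0.0784 and 0 CPM in #m4, 0 CPM in #m8 and 0 CPM in #m10, counted in 7.73% (interval 4.29 to 12.6%), and at 238 CPM in the male cells of #m6c against 0.164 and 0.183 CPM in #m1c and #m18c. The smooth muscle cluster #m6 had *Pgm5* at 109.6 and 35.9 CPM.

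Within #m1, the female cells, all on plate 058s, had *Ngfr*, *Acta2* and *Myh11*, a smooth muscle myosin, at 434, 752 and 250.4 CPM, and the male cells at 146, 182 and 64.3 CPM. The female values include the 6 cells of #m14c, whose mural cell markers summed to 9425 CPM. In the 82 female cells of #m1c and #m18c *Acta2* was at 641 CPM, and the level of *Myh11* there is not reported here. *Iigp1* and *Egr1* lay the other way, at 96.2 and 816 CPM in female and 283 and 1964 CPM in male cells. These genes were picked after their values were seen, there is 1 pool of #m1 per sex, and sex and plate cannot be told apart.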
